A study of Mus musculus with 12 samples.

Results

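The genes that separated NKG2D-deficient from NKG2D-expressing CD4 T cells in the same direction in 2 kinds of T helper culture are described here, from all 12 RNA-sequencing libraries of the study. The cells came from lymph nodes and spleen of mice whose CD4 T cells carry OT-II, a transgenic receptor for a peptide of ovalbumin. Wild-type cells (WT, labelled C57BL/6 x OT-II) carried the Thy1.2 form of the surface protein Thy1 and were sorted as NKG2D positive. Knockout cells (KO, labelled OT-II x NKG2D-/-) carried Thy1.1. Both genotypes grew together with antigen-presenting cells, the ovalbumin peptide and an antibody to the costimulatory receptor CD28. Th1 cultures contained IL-2, IL-12 and an antibody to IL-4. Th17 cultures contained IL-1b, IL-6, IL-23 and antibodies to IFNg and IL-4, and were given IL-12 after the second stimulation, so they are Th17 cells exposed to a Th1 cytokine. Cells were polarized on day 0 and day 5 and sorted on day 8. Each genotype had 3 libraries per culture, which makes 6 KO against 6 WT in 4 groups. The gate on NKG2D and the form of Thy1 follow the genotype in all libraries, so their parts cannot be told apart. The labels do not say which samples came from separate cultures or animals, so the spread behind each p-value is that between these samples and may be technical.

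NKG2D is an activating receptor of natural killer cells and of many killer T cells. It binds ligands that stressed, infected or transformed cells put on their surface, and it signals through the adaptor protein DAP10, encoded by Hcst. Some CD4 T cells also carry it after repeated stimulation. Th1 cells make IFNg under the transcription factor T-bet, and Th17 cells are known for making IL-17. IFNg acts back on T cells and turns on guanylate-binding proteins, immunity-related GTPases and the machinery of class I antigen presentation.

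Depth was uneven. There were 9 libraries with 9108203 to 12688637 counted reads. The other 3, Th17 WT 2, Th17 WT 3 and Th17 KO 2, had 1647232 to 2731909, of which 18.3% to 51% fell on 1 gene ID with no name in the annotation used. Libraries are numbered 1 to 3 within a group in order of deposit, and the numbers were not used to pair libraries. Marker genes of the cultures did not all follow the labels. Il17a had 0 reads in all 6 Th1 libraries, Il23r, a chain of the IL-23 receptor, ranged from 0.208 to 1.04 CPM (read counts scaled to library size) in Th1 and from 38.4 to 75.1 in Th17. Ifng was at 657 to 929 CPM in WT and 547 to 784 in KO in Th1, ranges that overlap, and at 174 to 233 in WT and 38.9 to 66.9 in KO in Th17, ranges that do not. Other Th1 markers were no higher in Th1: Tbx21, the gene of T-bet, was at 50.8 to 84.4 CPM in Th1 and 44.3 to 105 in Th17, Il12rb2, a chain of the IL-12 receptor, at 373 to 451 and 506 to 701, and the chemokine receptor Cxcr3 at 0.548 to 1.6 and 12.5 to 22.1. Summed CD4 T cell markers lay between 9460 and 10600 CPM in Th1. In Th17 they were at 9720 to 10800 in WT and 9040 to 9460 in KO, and the part of this sum in the results was not tested.

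Klrk1, the gene of NKG2D itself (chr6:129610323-129623864, GRCm38), was measured first because it checks the labels. WT libraries held 161, 158 and 128 CPM in Th1 and 130, 141 and 133 CPM in Th17. KO libraries held 5.58, 5.63 and 3.31 CPM in Th1 and 3.35, 2.1 and 1.6 CPM in Th17. WT and KO were far apart in both cultures, and every KO library still held some reads of the gene, from 2 to 81. Klrk1 was 37.0-fold lower in KO (log2 -5.21 ± 0.17 SE, edgeR quasi-likelihood test with culture as a term, adjusted p = 1.69e-08). Hcst, its adaptor, had a log2 difference of -0.22 (adjusted p = 0.169), and Thy1 one of -0.22 (adjusted p = 0.171), and neither passed the test. Each SE given here and below is the absolute log2 difference divided by the square root of the test's F statistic. It is not a fitted standard error.

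Genes were called in 3 tests of KO against WT: over all 12 libraries with culture as a term (the genotype term), in Th1 and in Th17. The threshold was an adjusted p of 0.05 over 12189 tested genes, and the shares over all of them are the background for the gene lists below. The genotype term called 1050 genes (8.61%), of which 687 were lower in KO (5.64% of all tested) and 363 were higher (2.98%). In Th1 562 genes passed (4.61%), 356 lower and 206 higher. In Th17 711 passed (5.83%), 490 lower and 221 higher. A gene that passed all 3 tests with 1 sign is called shared below. There were 201 such genes (1.65%), of which 149 were lower in KO (1.22%) and 52 were higher (0.427%). Most, 191, are protein-coding. The count was 107 without Th1 WT 2, 117 without Th1 KO 2 and 125 without the 3 shallow libraries. The Th1 count fell to 260 without Th1 WT 2, 293 without Th1 KO 2 and 343 without Th1 KO 1, and the Th17 count to 411 without Th17 WT 2, 453 without Th17 KO 1 and 458 without Th17 KO 3.

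Genes called in 1 culture were looked up in the other. A call with the same sign needs the same sign first, so its share cannot be the larger. Of the 562 genes called in Th1, 482 (85.8%) had the same sign in Th17. With that sign, 35.9% were also called there, against 5.83% of all tested genes called in Th17 in either direction. Of the 711 called in Th17, 603 (84.8%) had the same sign in Th1. With that sign, 28.4% were called there, against 4.61% of all tested genes called in Th1. Over all tested genes the sign was the same for 60.8%, and Pearson's r between the 2 log2 differences was 0.37 across genes, which are not independent replicates. Of the 1050 genes of the genotype term, 1034 had 1 sign in both cultures, 258 passed in Th1 but not Th17, 273 in Th17 but not Th1, and 318 in neither culture alone. WT and KO values were apart in both cultures with 1 sign for 690 of all tested genes (5.66%), among them 177 of the 201 shared genes.

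**Figure D1:**
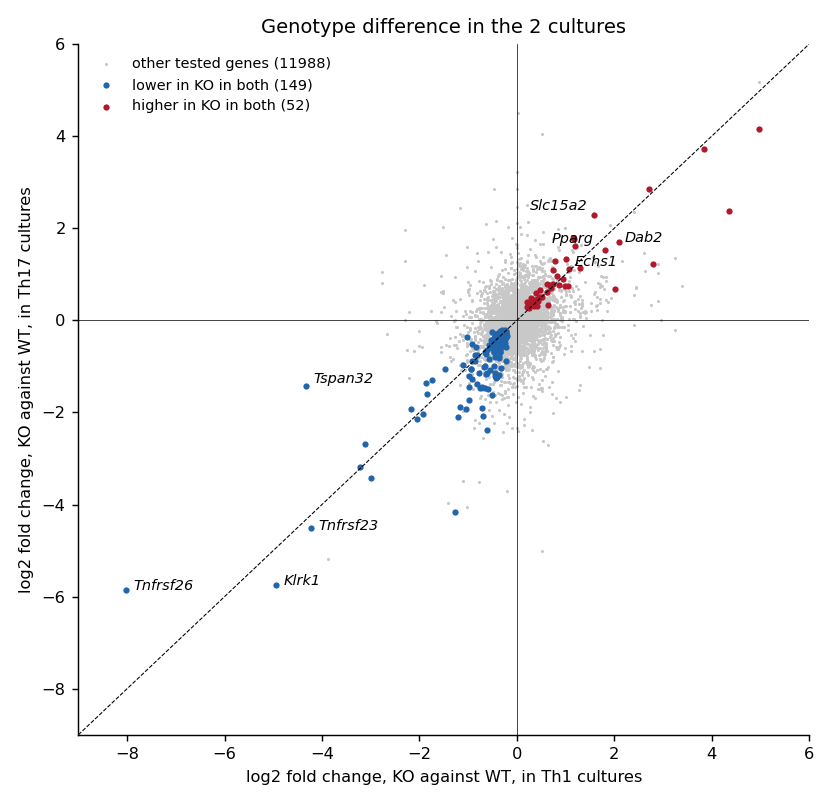
Each point is 1 of 12189 tested genes, placed by its log2 difference between KO and WT in Th1 cultures (horizontal axis) and in Th17 cultures (vertical axis); the dashed line marks equal differences. Blue points are the 149 genes lower in KO and red points the 52 genes higher in KO that passed the tests in both cultures; Klrk1, Tnfrsf26 and Tnfrsf23 lie far below the rest at the lower left.

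Most shared differences were small. Among the 149 lower genes the median log2 difference was -0.48 (-0.42 in Th1 and -0.56 in Th17), 29 differed by more than 2-fold and 91 by less than 1.5-fold. Among the 52 higher genes the median was 0.66 (0.63 in Th1 and 0.67 in Th17), with 14 over 2-fold and 25 under 1.5-fold. The median over all tested genes was 0. The difference was larger in Th17 for 145 of the 201 genes and larger in Th1 for 56. These genes had to pass in both cultures, and the 3 shallow libraries are all Th17. No share over all tested genes is given, so these counts do not rank the 2 cultures.

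Of the 149 shared lower genes, 6 were on the interferon-induced GTPase list or the antiviral list, called the interferon lists below. Of all 12189 tested genes, 49 were on them. The Ifi200 and class I presentation lists were not counted as interferon lists. The upstream sequences of 4 of the 6 are shown before the values. These 4 are the shared members of the interferon-induced GTPase list. Each has its stretch from the RefSeq promoter table of GRCm38.p6, 5′ to 3′ on the gene's own strand and ending before the RefSeq transcript start. In GENCODE, which gave the gene positions used here, Gbp2 starts at 142620602, inside its printed stretch. Capitals mark a match on either strand to GAAA, any 2 bases and GAAA again, the core of the interferon-stimulated response element that STAT and IRF factors bind.
Gbp2 (chr3:142620564-142620653, plus strand): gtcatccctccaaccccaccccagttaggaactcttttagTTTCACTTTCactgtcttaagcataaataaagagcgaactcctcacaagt
Gbp7 (chr3:142530243-142530332, plus strand): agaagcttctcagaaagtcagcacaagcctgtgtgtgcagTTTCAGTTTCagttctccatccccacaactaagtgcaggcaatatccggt
Gbp2b (chr3:142594670-142594759, plus strand): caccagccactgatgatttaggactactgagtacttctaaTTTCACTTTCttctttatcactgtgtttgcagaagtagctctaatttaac
Igtp (chr11:58199482-58199555, plus strand): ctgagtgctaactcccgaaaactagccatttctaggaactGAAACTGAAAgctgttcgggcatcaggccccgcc
The match starts 50 bases before the RefSeq transcript start in Gbp2, 44 in Gbp7, 128 in Gbp2b and 25 in Igtp, counted to its nearest base. It lies on the minus strand in the 3 Gbp genes, so their line shows its reverse complement, and on the plus strand in Igtp. Igtp and Gbp7 also hold the gamma-activated site TTCNNNGAA, the element of STAT dimers. In Igtp it comes just before the core and overlaps it by no base, at 37 to 45 bases before the start:
Igtp, gamma-activated site in capitals (chr11:58199471-58199555, plus strand): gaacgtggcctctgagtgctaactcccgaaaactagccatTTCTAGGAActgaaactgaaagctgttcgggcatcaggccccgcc

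In windows from 250 bases before to 50 after the start, the response element core was found for 291 of the 9040 tested genes with a window (3.22%). It was found for 10 of 117 shared lower genes (8.55%) and for 0 of 40 shared higher genes. Of the tested genes on the interferon lists, 20 of 32 (62.5%) held it, and of the shared lower genes on no interferon list, 6 of 112 (5.36%). Ifi211 and H2-T23, of the Ifi200 and class I lists, were among these 6. The gamma-activated site was found for 634 windows in all (7.01%), for 14 of the shared lower genes (12%) and for 4 of the shared higher genes (10%). Both motifs were searched on both strands, and a match describes these letters in this window and no more.

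The interferon-induced GTPases attack the vacuoles of intracellular pathogens. Of 15 tested members of this list, 10 passed the genotype term, all lower in KO (Gbp2, Gbp3, Gbp4, Gbp7, Gbp8, Gbp9, Gbp2b, Igtp, Iigp1 and Gvin1). The background of lower calls was 5.64%. The list's median log2 difference was -0.30, against 0 over all genes, and 12 members were negative in both cultures. In Th1 10 members passed and in Th17 4. Gbp2, a guanylate-binding protein, was at 806, 903 and 792 CPM in Th1 WT against 430, 420 and 372 in Th1 KO, and at 776, 841 and 798 CPM in Th17 WT against 664, 618 and 601 in Th17 KO. No KO library reached a WT library in either culture, and the gap was wider in Th1 (log2 -1.03, adjusted p = 6.02e-11) than in Th17 (-0.36, adjusted p = 0.00175). Gbp7 was at 523, 572 and 569 CPM in Th1 WT and 428, 422 and 450 in Th1 KO, and at 246, 250 and 259 CPM in Th17 WT and 183, 165 and 182 in Th17 KO. Its log2 differences in the 2 cultures were -0.36 and -0.49 (genotype term -0.41 ± 0.05 SE, edgeR adjusted p = 1.11e-06). Gbp2b, from the same chromosome 3 cluster, had a genotype-term log2 of -0.49 (adjusted p = 3.74e-05), and Igtp, an immunity-related GTPase, one of -0.30 (adjusted p = 5.36e-05). The shared call was kept for Gbp2 and Gbp7 with each library left out, and lost for Gbp2b without Th17 WT 2 or Th17 KO 3 (largest adjusted p in a culture 0.207) and for Igtp without Th17 KO 3 (0.0755). Without the 3 shallow libraries Gbp7 and Igtp kept it and Gbp2 and Gbp2b lost it. Members of the Gbp family are close copies, so reads may have been split between them, and Igtp overlaps the annotated Irgm2.

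Antiviral genes, which interferons also induce, followed less evenly. Of 34 tested members 8 passed the genotype term, all lower in KO (among them Usp18, Ifit2, Ifit3, Zbp1, Stat2, Parp9 and Dtx3l), and 2 were shared, Usp18 and Ifit2. The background of lower calls was 5.64%, and 1.22% of all tested genes were shared and lower. Usp18, a protease that removes the ubiquitin-like protein ISG15 and dampens interferon receptor signalling, was at 29.1, 21.9 and 31.7 CPM in Th1 WT and 7.84, 5.56 and 9.69 in Th1 KO. In Th17 it was at 13.4, 16.6 and 15.6 CPM in WT and 3.58, 2.1 and 6.22 in KO. Its WT and KO ranges were apart in both cultures, and it was 3.43-fold lower in KO (edgeR adjusted p = 4.49e-06). Ifit2, which binds viral RNA, had log2 differences of -0.49 in Th1 and -0.49 in Th17. Its shared call was lost in 7 of the 12 fits with a library left out (Th1 WT 1, WT 2, KO 2 or WT 3, and Th17 KO 1, WT 2 or WT 3, largest adjusted p in a culture 0.336). Of 11 tested Ifi200 genes, a cluster of nucleic acid sensors on chromosome 1, 6 passed the genotype term, all lower (Ifi204, Ifi206, Ifi209, Ifi211, Ifi213 and Ifi214), with a median log2 of -0.57 over the list. The background of lower calls was again 5.64%. Ifi211 (log2 -0.91 in Th1 and -0.88 in Th17) was the shared one, and it lost that call without Th17 KO 1, WT 2, WT 3 or KO 3 (largest adjusted p 0.14). It overlaps Mndal on the same strand. Without the 3 shallow libraries no antiviral or Ifi200 gene stayed shared.

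Members of the class I antigen presentation list were lower in KO where they passed the test. Over all tested genes 5.64% passed the genotype term lower and 1.22% were shared and lower. Of 17 tested members 10 passed the genotype term, 8 passed in Th1, 5 in Th17 and 4 in all 3 tests. The 10 were the heavy chains H2-K1, H2-D1, H2-T23 and H2-Q7, their partner B2m, the peptide transporter Tap1 and its tether Tapbp, the proteasome subunit Psmb10, the trimming enzyme Erap1 and Nlrc5, the transcriptional activator of these genes. The list's median log2 was -0.21, with 14 members negative in both cultures. Nlrc5 was at 386, 390 and 392 CPM in Th1 WT and 312, 319 and 325 in Th1 KO, and at 310, 314 and 301 CPM in Th17 WT and 244, 228 and 236 in Th17 KO. The 2 genotypes were apart in both cultures by about the same step (log2 -0.29 and -0.38, genotype term adjusted p = 5.69e-06). H2-T23 (genotype term -0.39), H2-Q7 (-0.44) and Tap1 (-0.29) were the other shared members. The list had 2 shared members, not 4, without Th1 WT 2 and without Th17 WT 1. H2-T23 lost the call without Th17 KO 3, H2-Q7 without Th1 WT 1, Th1 WT 2 or Th17 WT 1, and Tap1 without Th1 WT 2, Th1 KO 3 or Th17 WT 1, with adjusted p up to 0.134. H2 genes are close copies of each other, and Tap1 overlaps Psmb9 on the opposite strand, which the library kit does not tell apart.

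**Figure D2:**
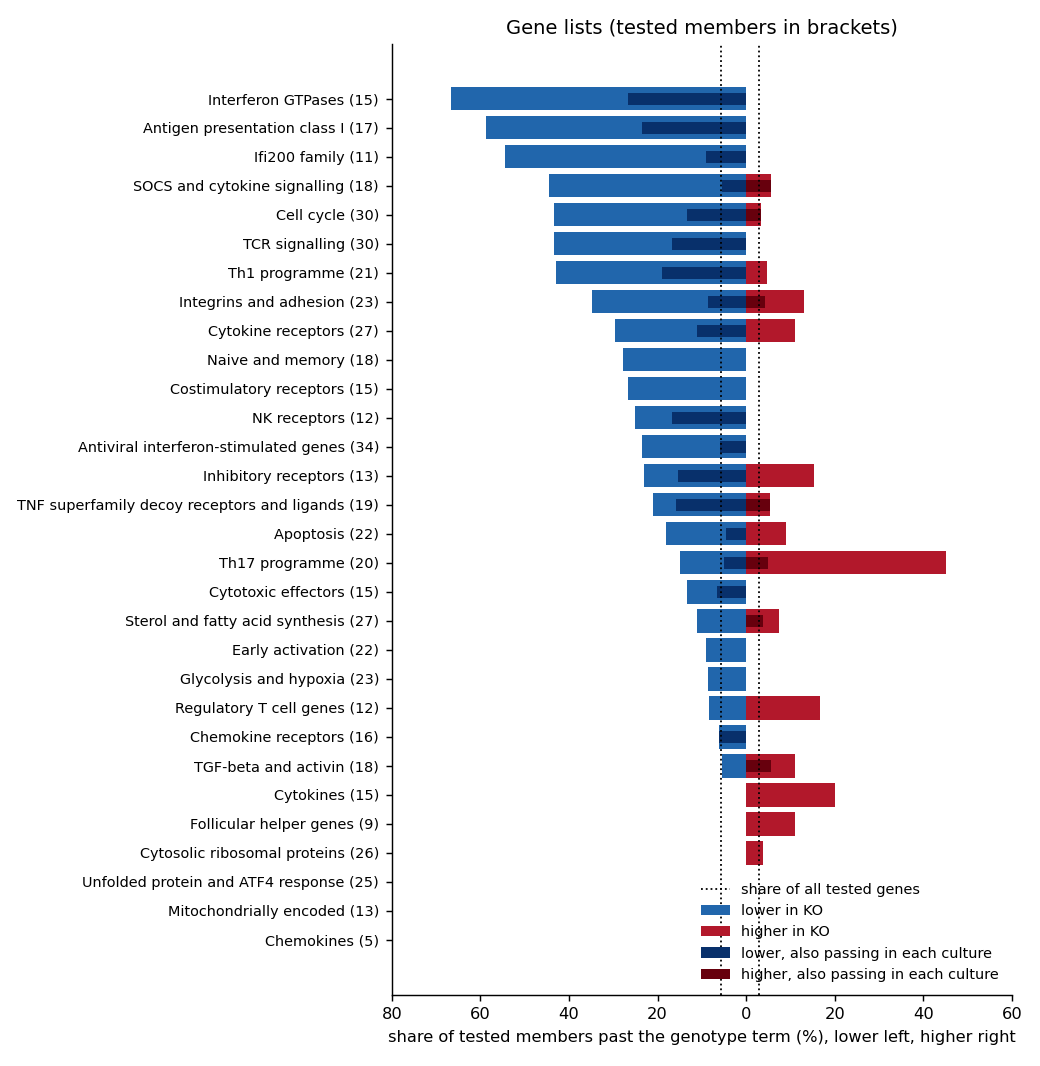
Bars give, for each of 30 gene lists (tested members in brackets), the percentage of tested members that passed the genotype term, lower in KO to the left and higher in KO to the right; the narrow dark bars are the members that also passed in each culture, and the dotted lines are the shares over all 12189 tested genes, 5.64% and 2.98%. Interferon GTPases, class I presentation and Ifi200 genes extend farthest to the left, and the Th17 programme extends farthest to the right.

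Genes of the Th1 programme that passed the test were lower in KO, with 1 exception. Of 21 tested members 9 passed the genotype term lower (among them Stat4, Il12rb2, Il18r1, Il18rap, Hlx, Ifngr1 and Txk) and 1 higher (Ifngr2), and 18 were negative in both cultures. In Th1 7 were called lower and in Th17 9, and 4 were shared. The background of lower calls in the genotype term was 5.64%, and 1.22% of all tested genes were shared and lower. Hlx, a homeobox factor that acts with T-bet on Ifng, was at 29.2, 33.1 and 37.1 CPM in Th1 WT and 19.8, 22.9 and 21.7 in Th1 KO, and at 19.6, 19.8 and 17.7 CPM in Th17 WT and 8.88, 8.4 and 8.82 in Th17 KO. The KO libraries lay below WT throughout, with log2 differences of -0.62 and -1.14. The 2 chains of the IL-18 receptor, whose genes lie 14.5 kb apart on chromosome 1, were both shared. Il18r1 had log2 -0.37 in Th1 and -0.82 in Th17, and Il18rap -0.44 and -0.80. Hlx kept the shared call with each library left out. Il18r1 lost it without Th1 KO 2 (adjusted p 0.0602) and Il18rap without Th1 WT 1, KO 1, WT 2, KO 2 or WT 3 (up to 0.09). The list had 2 shared members without Th1 KO 2 and 7 without Th17 WT 1, against 4.

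Genes of the Th17 programme went both ways. Of 20 tested members 9 passed the genotype term higher in KO (among them Il17a, Il17f, Il23r, Il1r1, Tmem176a, Tmem176b, Rbpj and Il24) and 3 lower (Stat3, Nfkbiz and Il6st). The background was 2.98% for higher and 5.64% for lower calls. In Th1 4 members were called higher and in Th17 5, with 1 lower in each, and 1 was shared in each direction. Il23r (Th1 adjusted p = 0.419) and Rbpj (Th1 adjusted p = 0.317) passed in Th17 only, and Tmem176a (Th17 adjusted p = 0.778) in Th1 only. Tmem176b had log2 1.22 in Th1 and -0.01 in Th17, and Il17a had 0 reads in Th1. Il17f, a cytokine of Th17 cells, was at 3.73, 2.37 and 1.04 CPM in Th17 WT and 12.1, 8.4 and 14.2 in Th17 KO, but at no more than 0.0808 CPM in any Th1 library. Its genotype-term call therefore rests on the Th17 libraries (log2 1.98 there, adjusted p = 2.41e-05, against adjusted p = 0.836 in Th1). Il6st, the signalling chain of the IL-6 receptor, was lower in both cultures (log2 -0.63 in Th1 and -1.16 in Th17) and lost the shared call without Th1 KO 2 (adjusted p 0.0508) and without the 3 shallow libraries.

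Parts of T cell receptor signalling were lower in KO. Of 30 tested members 13 passed the genotype term, all lower (among them Cd247, Cd4, Lck, Fyn, Lat, Sla2, Ptpn22, Cblb, Ubash3a, Ubash3b, Nfatc1 and Malt1), 8 of 30 without Th1 WT 2, and 24 were negative in both cultures. The list holds activators and brakes alike, and both kinds were among them. Over all tested genes 5.64% passed the genotype term lower. Sla2, an adaptor that lowers receptor signalling by promoting loss of the receptor complex, stood out in size. It was at 64.3, 64.1 and 71.2 CPM in Th1 WT against 17.2, 15.4 and 20.3 in Th1 KO. In Th17 it was at 36.1, 29.7 and 34.3 CPM in WT against 7.32, 6.3 and 9.74 in KO. The difference was of similar size in the 2 cultures (log2 -1.92 and -2.03, interaction adjusted p = 0.927, genotype term -1.95 ± 0.08 SE, edgeR adjusted p = 3.47e-15), and it held with each library left out. Sla2 overlaps Rab5if on the opposite strand. Ubash3b, a phosphatase that opposes receptor signalling, had a genotype-term log2 of -0.78, and Fyn, a kinase at the receptor, -0.41. Both kept the shared call in all 12 fits with a library left out. Cd247, the zeta chain of the receptor, was another shared member with a log2 of -0.22, and kept the shared call in 4 of the 12 fits. Without the 3 shallow libraries 2 members were shared.

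Cytokine signalling showed a single shared gene in each direction, beside genotype-term backgrounds of 5.64% lower and 2.98% higher. Of 18 tested members 8 passed the genotype term lower (among them Socs3, Stat2, Stat3, Stat4, Stat5a, Jak1 and Jak3), 5 without the 3 shallow libraries, and 1 higher. The higher one was Stat5b, a transducer of IL-2 signals. It was at 86.9, 90.7 and 97.7 CPM in Th1 WT and 118, 131 and 136 in Th1 KO, and at 121, 127 and 135 CPM in Th17 WT and 180, 170 and 180 in Th17 KO. All KO libraries lay above WT (log2 0.49 ± 0.05 SE, edgeR adjusted p = 3.11e-07), while Stat5a, the neighbouring family member, had a log2 of -0.17 (adjusted p = 0.0281). Socs3, a brake on IL-6 and IL-12 family signals, had log2 differences of -0.46 and -0.36, and lost the shared call without Th17 WT 1 or Th17 KO 3 (adjusted p up to 0.131).

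The lowest genes in KO outside these groups were chosen by a fixed rule: the 12 lowest genotype-term values among shared genes with at least 5 CPM in the higher genotype of each culture and ranges that do not overlap. Non-overlap is therefore part of the choice. Besides Klrk1, Sla2 and Usp18 they were Tnfrsf26, Serpinb5, Tspan32, Ms4a4c, Kit, Ly6c2, Trib2, Ncald and Dnah3. Tnfrsf26, a receptor of the tumour necrosis factor family related to the decoy receptors of the death ligand TRAIL (chr7:143607659-143628722), was the largest difference of the rule. It was at 36.4, 38.6 and 39.1 CPM in Th1 WT and 28, 28.1 and 26 CPM in Th17 WT. In KO it had 1, 2 and 2 reads in Th1 and 8, 0 and 4 reads in Th17. The fitted log2 was -8.02 in Th1 and -5.86 in Th17, and with so few KO reads the size is imprecise although the call (genotype term adjusted p = 9.1e-20) held with each library left out. Its neighbour Tnfrsf23, a TRAIL decoy receptor named here after its values were seen, had 54, 67 and 94 reads in Th1 WT and 2, 4 and 4 in Th1 KO. In Th17 it had 39, 4 and 3 reads in WT, the last 2 in shallow libraries, and 1, 0 and 2 in KO. The 2 genes are similar in sequence and lie 37.1 kb apart, so reads may have been shared between them.

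Tnfsf10, the gene of TRAIL itself, was also lower in KO (log2 -0.47 in Th1 and -0.99 in Th17, genotype term adjusted p = 0.00144), and Tnfsf8, the ligand of CD30, was higher. So 3 lower and 1 higher of the 19 tested members of the tumour necrosis factor family list were shared. Over all tested genes 1.22% were shared and lower and 0.427% shared and higher. Tnfsf8 was at 5.3, 3.84 and 3.12 CPM in Th1 WT and 7.94, 8.2 and 7.35 in Th1 KO, and at 50.8, 71.6 and 58.1 CPM in Th17 WT and 101, 105 and 116 in Th17 KO. Its level was far higher in Th17, and the step between genotypes was alike (log2 0.94 and 0.90). Tnfsf8 kept the shared call with each library left out. Tnfsf10 lost it without Th1 KO 1, WT 2, KO 2, WT 3 or KO 3 (adjusted p up to 0.198).

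**Figure D3:**
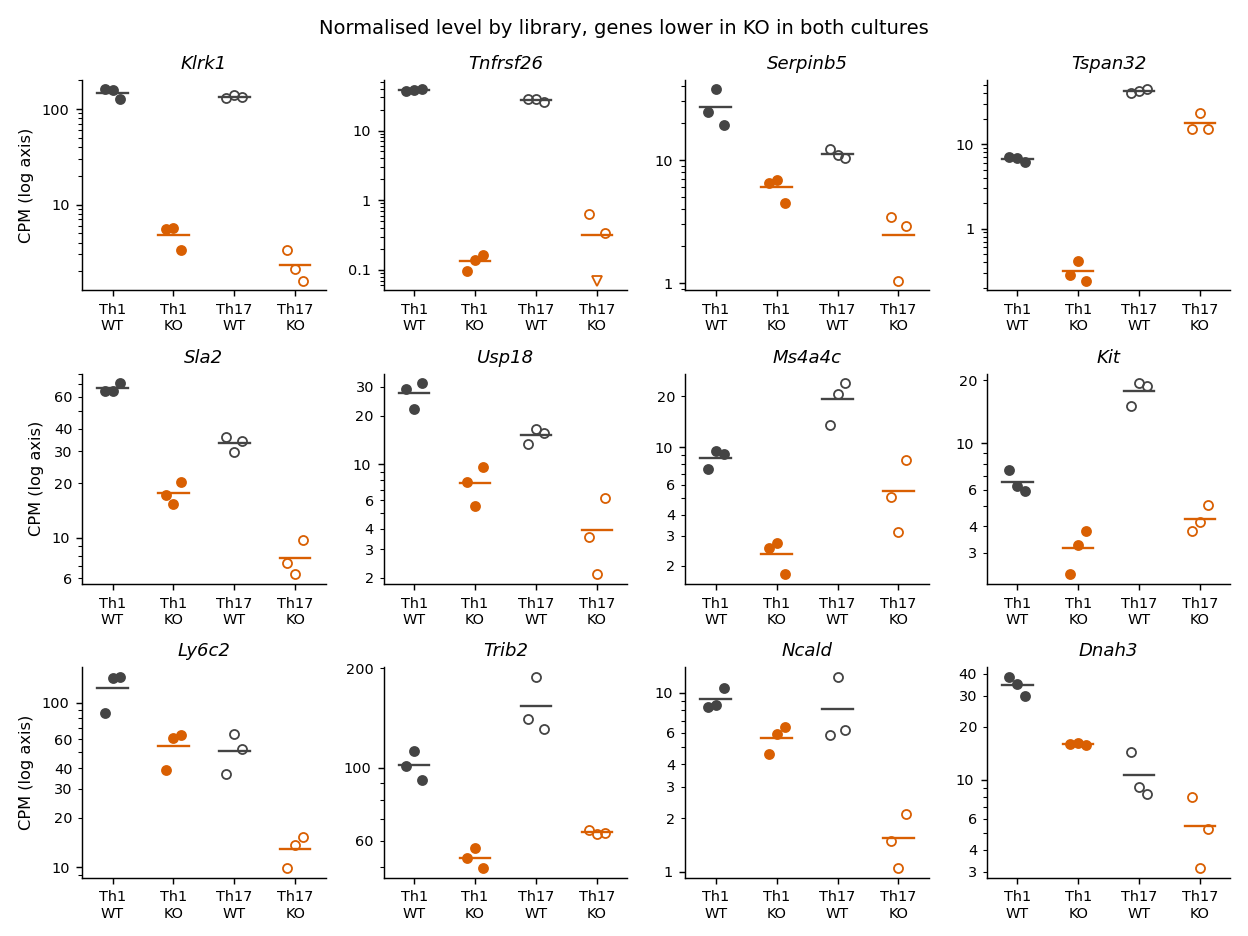
Each panel gives 1 of the 12 lowest shared genes by the rule, with the level in CPM on a log axis in the 3 libraries of each group (filled circles Th1, open circles Th17, grey WT, orange KO; bars are means). The open triangle of Tnfrsf26 is Th17 KO 2 with 0 reads, drawn at the axis foot; the WT and KO circles do not overlap within a culture in any panel, which the rule required.

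Tspan32, a tetraspanin of blood cells, was lower in KO by very different amounts. It was at 7.04, 6.82 and 6.11 CPM in Th1 WT and 0.284, 0.417 and 0.242 in Th1 KO. In Th17 it was at 40.8, 42.7 and 44.6 CPM in WT and 14.9, 23.1 and 15.3 in KO. Serpinb5, a serpin known as maspin, was at 24.4, 37.6 and 19.3 CPM in Th1 WT and 6.52, 6.95 and 4.52 in Th1 KO, and at 12.2, 11.1 and 10.4 CPM in Th17 WT and 3.43, 1.05 and 2.94 in Th17 KO, 4.27-fold lower over both. Trib2, a tribbles pseudokinase, was at 101, 112 and 91.8 CPM in Th1 WT and 53.2, 57 and 49.6 in Th1 KO, and at 140, 188 and 131 CPM in Th17 WT and 64.6, 63 and 63.5 in Th17 KO. Its KO values scattered little (log2 -1.08 ± 0.09 SE, adjusted p = 3.16e-06). Tspan32 overlaps the antisense gene Tspan32os.

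Kit, the receptor of stem cell factor, was at 7.47, 6.27 and 5.9 CPM in Th1 WT and 2.36, 3.27 and 3.8 in Th1 KO, and at 15, 19.4 and 18.7 CPM in Th17 WT and 3.82, 4.2 and 5.04 in Th17 KO. The difference was log2 -1.04 in Th1 and -1.92 in Th17. Ms4a4c and its neighbour Ms4a4b, membrane proteins of the MS4A family, were 3.08-fold and 2.07-fold lower in KO. Ncald, a calcium sensor, and Dnah3, an axonemal dynein chain, were 2.11-fold and 2.10-fold lower. Dnah3 overlaps Lyrm1 on the opposite strand. Ly6c2, one of the genes of the Ly6C surface protein, was at 86.8, 140 and 143 CPM in Th1 WT and 38.7, 60.7 and 63.6 in Th1 KO (adjusted p = 0.0497 there), and at 37, 64.1 and 51.9 CPM in Th17 WT and 9.89, 13.7 and 15.3 in Th17 KO. The closely similar Ly6c1, 59.3 kb away, was 2.00-fold lower. Reads may have been split between the pair.

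With each library left out in turn, the genotype term stayed past the threshold for all 12 lowest genes. The shared call was kept throughout for Klrk1, Tnfrsf26, Tspan32, Sla2, Usp18, Ms4a4c, Kit and Trib2. It was lost for Serpinb5 without Th17 WT 1, KO 1 or KO 3 (largest adjusted p in a culture 0.176), for Ncald without Th1 KO 1, WT 2, KO 2 or WT 3 (0.167), for Dnah3 without Th17 WT 1 or KO 3 (0.518) and for Ly6c2 in 11 of the 12 fits, all but that without Th1 WT 1 (0.179). Serpinb5, Usp18 and Ly6c2 also lost it without the 3 shallow libraries, and the other 9 kept it. Ly6c1 lost it in 8 of the 12 fits (without Th1 WT 1, KO 1, WT 2, KO 2 or KO 3, or Th17 WT 1, WT 2 or WT 3; up to 0.089).

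The 12 highest genes by the same rule were Mid1, Echs1, Mtg1, Tnfsf8, Lmna, Sh3pxd2a, Atp9a, Cystm1, E2f1, Tiam1, Marveld1 and Ppp1r16b. Their genotype-term log2 values ran from 1.35 for Mid1 down to 0.51 for Ppp1r16b. Mid1, a microtubule-bound ubiquitin ligase on the X chromosome, was at 4.06, 3.13 and 3.26 CPM in Th1 WT and 11.2, 4.59 and 7.91 in Th1 KO, and at 2.37, 3.16 and 2.08 CPM in Th17 WT and 9.19, 6.3 and 8.4 in Th17 KO. Echs1, a mitochondrial enzyme of fatty acid oxidation, was at 24.5, 26.2 and 20.8 CPM in Th1 WT and 52.8, 50.9 and 46.3 in Th1 KO. In Th17 it was at 21.9, 22.1 and 13.5 CPM in WT and 49.9, 32.6 and 45.1 in KO. Echs1 thus differed by a similar step in both cultures (log2 1.07 and 1.12, genotype term 1.09 ± 0.08 SE, edgeR adjusted p = 8.51e-10). Mtg1, a GTPase of the mitochondrial ribosome whose gene lies 21.1 kb from Echs1, was 1.88-fold higher in KO. Echs1 overlaps Paox and Mtg1 overlaps Sprn on the opposite strand.

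E2f1, a transcription factor that drives entry into DNA synthesis, was at 20.3, 18.7 and 16.2 CPM in Th1 WT and 32.8, 32.4 and 24.6 in Th1 KO, and at 13.3, 15.4 and 8.31 CPM in Th17 WT and 21.9, 23.1 and 21.2 in Th17 KO. Its log2 difference was 0.70 in both cultures. Lmna, the gene of lamin A and C, was 1.77-fold higher in KO, and the podosome scaffold Sh3pxd2a 1.69-fold. Tiam1, an exchange factor of the GTPase Rac, was 1.54-fold higher, the lipid flippase Atp9a 1.64-fold, and Cystm1 1.63-fold. Ppp1r16b, a regulatory subunit of protein phosphatase, was at 202, 186 and 197 CPM in Th1 WT and 277, 274 and 290 in Th1 KO, and at 149, 179 and 140 CPM in Th17 WT and 199, 224 and 244 in Th17 KO. KO exceeded WT in each culture (log2 0.51 ± 0.06 SE, adjusted p = 9.14e-07).

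With each library left out in turn the genotype term stayed past the threshold for all 12. The shared call was kept throughout for Echs1, Tnfsf8, Lmna and Ppp1r16b. It was lost for Mid1 without Th1 WT 2 or Th17 WT 1 (largest adjusted p in a culture 0.138), for Mtg1 without Th17 WT 2 (0.0518), for Sh3pxd2a without Th17 WT 1 or KO 1 (0.143), for E2f1 without Th17 WT 1 (0.109), for Tiam1 without Th1 KO 2, Th17 WT 1 or Th17 KO 3 (0.0567), and for Marveld1 without Th1 WT 2 or KO 2 (0.135). Cystm1 lost it without Th1 KO 1, WT 2, WT 3 or KO 3 (0.212), and Atp9a in 7 fits (without Th1 WT 1, WT 2, KO 2 or WT 3, or Th17 WT 1, KO 1 or WT 2; 0.182). Echs1, Tnfsf8, Tiam1, Marveld1 and Ppp1r16b kept it without the 3 shallow libraries, and the other 7 lost it.

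**Figure D4:**
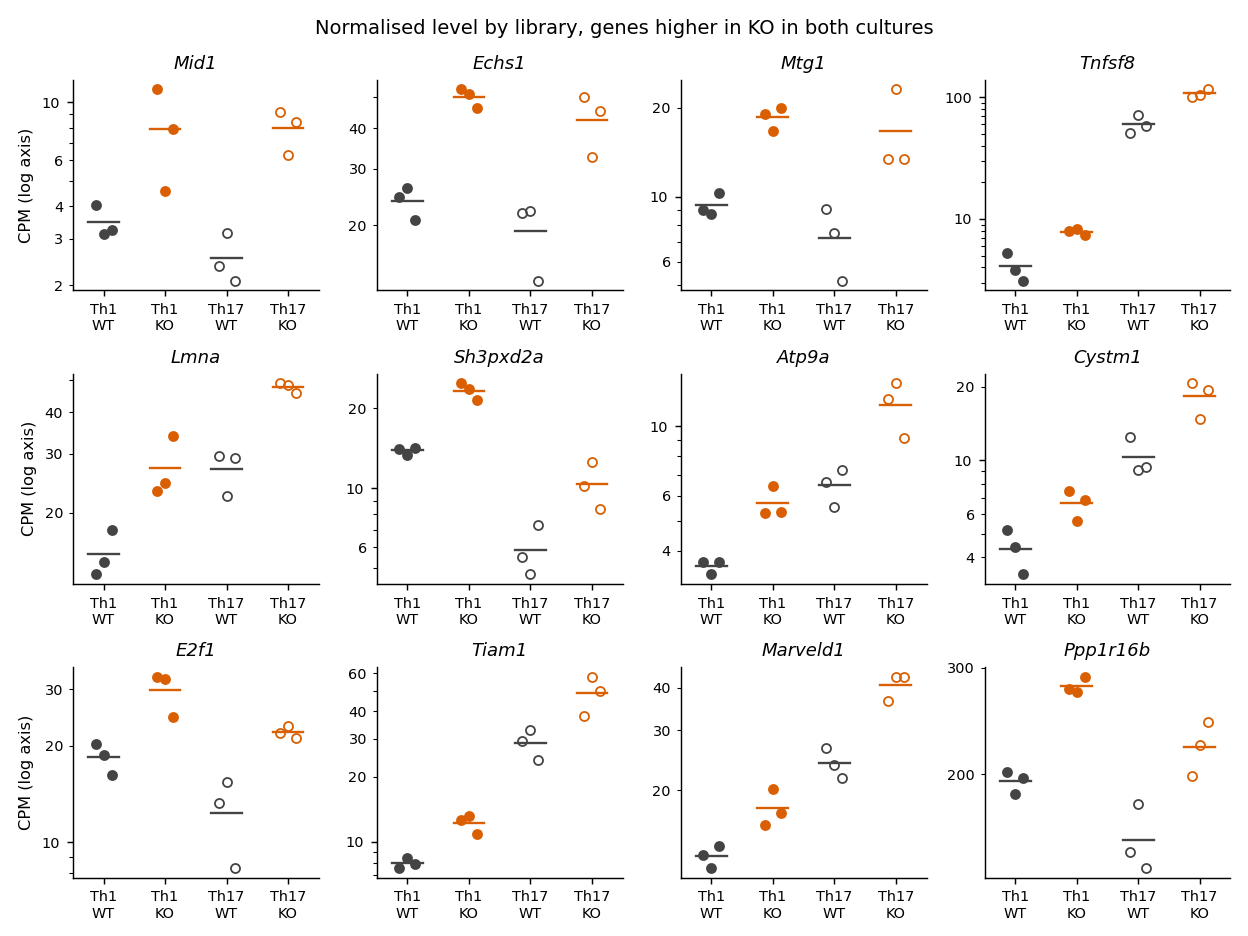
Each panel gives 1 of the 12 highest shared genes by the rule, with the level in CPM on a log axis in the 3 libraries of each group (filled circles Th1, open circles Th17, grey WT, orange KO; bars are means). KO circles lie above WT circles within each culture, as the rule required, while the level itself differs between cultures for Tnfsf8 (3.12 to 8.2 CPM in Th1, 50.8 to 116 in Th17).

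Several shared higher genes had low counts in Th1 and fell outside the rule. They are named after their values were seen. Pparg, a nuclear receptor of lipid metabolism, was at 0.29, 0.313 and 0.347 CPM in Th1 WT and 0.567, 1.53 and 1.21 in Th1 KO, and at 5.59, 1.98 and 1.04 CPM in Th17 WT and 14.6, 8.4 and 11.4 in Th17 KO (log2 1.59, adjusted p = 0.000134). Dab2, an endocytic adaptor, was 3.63-fold higher, Slc15a2, a peptide transporter, 3.70-fold, Eng, a coreceptor of TGF-beta, 2.30-fold, and Inhba, a subunit of activin, 2.81-fold. Eng overlaps Fpgs on the opposite strand. In Inhba all Th1 WT libraries were at or below 0.157 CPM, under the level of 3 reads. Enah, an actin regulator, showed the reverse layout, with 26.2 to 29.5 CPM in Th1 WT and 51.6 to 59.6 in Th1 KO, but at most 3.74 CPM in any Th17 library. The genotype term held for these 6 genes with each library left out. The shared call was lost for Dab2 and Inhba without Th17 WT 1, for Eng without Th1 KO 2, for Enah without Th17 WT 1 or KO 1, for Pparg without Th1 WT 1, WT 2, KO 2, WT 3 or KO 3, and for Slc15a2 without Th1 WT 1, WT 2, KO 2 or KO 3, or Th17 WT 1 (adjusted p from 0.0507 to 0.242 at their largest). Pparg, Dab2 and Inhba kept it without the 3 shallow libraries.

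Receptors of natural killer cells were followed because NKG2D is one of them. Of 12 tested members 3 passed the genotype term, all lower (Klrk1, Klre1 and Klra3), and 2 were shared. Over all tested genes 5.64% passed it lower and 1.22% were shared and lower. Klra3, an inhibitory Ly49 receptor, was at 8.42, 12.7 and 11.9 CPM in Th1 WT and 5.29, 7.85 and 8.24 in Th1 KO, and at 3.39, 3.56 and 2.08 CPM in Th17 WT and 0.701, 1.05 and 0.504 in Th17 KO. Its genotype-term call was lost without Th1 KO 1, WT 2 or WT 3 (adjusted p up to 0.0658) and without the 3 shallow libraries (0.121), and its shared call also without Th1 KO 2. In Th17 10 of the 12 were called lower in KO and in Th1 3, against 490 and 356 of all 12189 tested genes. Summed markers of natural killer and innate lymphoid cells were 15.5 to 16.6 CPM in Th1 WT and 10.9 to 12.5 in Th1 KO, and in Th17 31.9 to 39.5 CPM for WT and 17.4 to 20.7 for KO. Of these 8 markers Ncr1 had 0 reads in all libraries, Tyrobp and Eomes had at most 3 and Klrb1c at most 4, and most of the sum came from Kit, Gata3 and Klre1. Summed B cell markers were 6.5 to 7.47 CPM in Th1, and 17.7 to 24.8 in Th17 WT against 32.8 to 37.3 in Th17 KO, mostly from Ebf1 and Ighm. Their part in the results was not tested. In sorted bulk cells, fewer cells of a type and less RNA per cell cannot be told apart.

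Inhibitory receptors gave 2 shared genes of 13 tested, both lower, against 1.65% shared over all tested genes. Entpd1, the enzyme CD39 that removes extracellular ATP, was at 87.7, 88.2 and 89.8 CPM in Th1 WT and 50.2, 46.5 and 58.1 in Th1 KO, and at 49.8, 43.5 and 37.4 CPM in Th17 WT and 19.4, 22.1 and 22.9 in Th17 KO (log2 -0.90 ± 0.07 SE, adjusted p = 2.01e-08). Entpd1 kept its shared call with each library left out. Lag3, a receptor that binds MHC class II, was at 14.3, 17.2 and 13.4 CPM in Th1 WT and 11, 13.1 and 8.8 in Th1 KO, and at 50.4, 54.6 and 53 CPM in Th17 WT and 23.9, 20 and 19.8 in Th17 KO. In Th1 Lag3 was close to the threshold (adjusted p = 0.048). Its shared call was lost in 7 fits, without Th1 WT 1, KO 1, WT 2 or KO 3, or Th17 WT 2, KO 2 or WT 3 (largest adjusted p in a culture 0.28). It was also lost without the 3 shallow libraries. Also lower was Lair1, and higher were Cd200r1 and Cd200, all past the genotype term and not shared.

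Some genes of cell division were slightly lower in KO. Of 30 tested members 13 passed the genotype term lower (Mki67, Top2a, Ccna2, Ccnb1, Ccnb2, Cdk1, Bub1b, Aurka, Aurkb, Cenpe, Cenpf, Kif11 and Rrm2), and E2f1 passed higher, while 6 were called lower in Th1 and 8 in Th17. The median log2 of the list was -0.16, and the background of lower calls in the genotype term was 5.64%. Cenpf, a protein of the kinetochore, was at 261, 275 and 262 CPM in Th1 WT and 195, 209 and 203 in Th1 KO, and at 171, 192 and 237 CPM in Th17 WT and 141, 128 and 140 in Th17 KO. It was 1.35-fold lower (adjusted p = 9.33e-06) and kept its shared call with each library left out. Top2a, the topoisomerase of dividing cells, and Cenpe, a kinetochore motor, were 1.17-fold and 1.20-fold lower, with Th17 adjusted p of 0.0479 and 0.0451. Top2a kept the shared call in 1 and Cenpe in none of the 12 fits with a library left out. The list's 4 shared lower members fell to 1 without each of Th1 WT 1, KO 1, WT 2, KO 2, WT 3 and KO 3, Th17 KO 1 and Th17 WT 3, and without the 3 shallow libraries, and to 2 without Th17 WT 2. Other mitotic genes, Aspm, Ube2c, Prc1, Hjurp, Cenpa, Nek2 and Ckap2l, and the histone genes Hist1h1e, Hist1h4c, Hist1h4d, Hist1h2bf and Hist3h2ba, were shared and lower by 1.19-fold to 1.43-fold, and are named after their values were seen. Aspm kept the shared call with each library left out, and the other 11 lost it in 2 to 9 of the 12 fits. Histone genes are close copies and their transcripts mostly lack poly-A tails, on which this library kit depends.

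Adhesion genes differed in both directions, beside genotype-term backgrounds of 5.64% lower and 2.98% higher. Of 23 tested members 8 passed the genotype term lower (among them Itgal, Itgb2, Itgb3, Selplg, Icam1, Ly6c1 and Ly6c2) and 3 higher (Itga3, Itga6 and Cd44). Cd44, the hyaluronan receptor of activated and memory T cells, was at 109, 121 and 127 CPM in Th1 WT and 142, 154 and 158 in Th1 KO, and at 293, 261 and 272 CPM in Th17 WT and 337, 359 and 341 in Th17 KO. It was 1.26-fold higher in KO (adjusted p = 5.36e-05) and lost the shared call without Th17 WT 2 (adjusted p 0.0532) and without the 3 shallow libraries. On the apoptosis list Bcl2l11, whose product is the death activator BIM, was lower by log2 -0.52 in Th1 and -1.63 in Th17. Its genotype-term call (adjusted p = 0.026) was lost without Th1 WT 1, WT 2 or KO 3, or Th17 WT 1 or KO 1 (up to 0.0661) and without the 3 shallow libraries (0.0774).

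Several lists had no shared member. In the genotype term 5.64% of all tested genes passed lower and 2.98% higher. Among costimulatory receptors 4 of 15 passed the genotype term lower (Cd28, Tnfrsf4, Cd27 and Tnfrsf14), and Cd28 had log2 -0.31 in Th1 and -0.20 in Th17 (adjusted p = 0.0794). Among genes of naive and memory cells 5 of 18 passed lower, with Foxo1 at log2 -0.43 in Th1 and -0.27 in Th17 (adjusted p = 0.0654). Early activation genes passed for 2 of 22, close to the 8.61% of all tested genes. Tnfaip3 had log2 -0.46 in Th1 and -0.16 in Th17 (adjusted p = 0.22). No member of the mitochondrially encoded list (13 tested), of the unfolded protein list (25 tested) or of the chemokine list (5 tested) passed, and mt-Co3, Pdia6 and Ccl4 had the smallest p with log2 of 0.10, 0.12 and -0.42. Of the reads outside the dominant unnamed ID, mitochondrial genes took 14.2% to 14.8% in WT and 14.6% to 15.1% in KO in Th1, and 16.9% to 18.6% in WT and 19% to 20.8% in KO in Th17. Of 26 ribosomal protein genes 25 were positive in both cultures with a median log2 of 0.11, and 1 passed, Rplp1 (log2 0.18, adjusted p = 0.0319), which lost its call without Th1 KO 1 or WT 3, or Th17 KO 1, WT 2, KO 2 or WT 3 (up to 0.0868). Glycolysis had Hk2 as its lowest p (log2 -0.21, adjusted p = 0.0229), lost without Th1 WT 1 or KO 3, or Th17 WT 1, KO 1 or WT 2 (up to 0.0805). Cd200 of the follicular list had log2 0.46 and Lrrc32 of the regulatory list 1.21, and neither was shared.

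Over the 30 function lists, 43 of 512 tested genes were shared (8.40%), against 1.65% of all tested genes, and 158 shared genes were on no list. The lists were put together with earlier results of these data known, so this share is a description of them. Of these 158, several were named after their values were seen. Zfp941, a zinc finger gene, had 57, 46 and 49 reads in Th1 WT and 8, 4 and 5 in Th1 KO, and was 9.43-fold lower in KO by the genotype term. In Th17 it had 116, 32 and 6 reads in WT, the last 2 in shallow libraries, and 16, 0 and 8 in KO. Camk2b, a subunit of a calcium-activated kinase, was 7.42-fold lower, with 46, 30 and 43 reads in Th1 WT and 3, 3 and 6 in Th1 KO. In Th17 it had 48, 15 and 6 reads in WT, the last 2 in shallow libraries, and 6, 0 and 13 in KO. Cmss1 was 4.20-fold lower, although it overlaps Filip1l on the opposite strand and lost the shared call without Th17 WT 1 (adjusted p 0.178). Nnt, the mitochondrial transhydrogenase that makes NADPH, was at 26.6, 24.4 and 22.3 CPM in Th1 WT and 14.4, 13.7 and 13.2 in Th1 KO, and at 33, 34.4 and 28 CPM in Th17 WT and 20.4, 12.6 and 19.6 in Th17 KO. It was 1.74-fold lower (adjusted p = 1.67e-07). Sulf2, an extracellular sulfatase, was 1.80-fold lower and overlaps Ncoa3 on the opposite strand. Odc1 and Srm, which make the polyamines putrescine and spermidine, were 1.36-fold and 1.25-fold higher in KO. Srm lost the shared call without Th1 WT 1, WT 2, KO 2 or KO 3, or Th17 WT 1 or KO 3 (adjusted p up to 0.146), and the other genes of this paragraph but Cmss1 kept it with each library left out. Odc1 and Srm lost it without the 3 shallow libraries as well.

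Some shared genes were neighbours on a chromosome. Of the 201 shared genes, 24 pairs of neighbours lay within 200 kb of each other, and in 20 of these pairs both genes had the same sign. No such count was made for other tested genes. As 149 of the 201 were lower in KO, a same sign is the more common outcome for any pair of them. The pairs include Il18r1 and Il18rap, the Gbp cluster, Gimap4 and Gimap7, the Ly6 and Ms4a clusters and Hist1 genes. The far end of chromosome 7 held another group, whose bounds were chosen after the values were seen. From 130 Mb to the end, 8 of 108 tested genes were shared (7.41%). From 120 Mb the same 8 were 3.67% of 218, and before 120 Mb 13 of 676 were shared (1.92%). The 8 were Tnfrsf26, Tnfrsf23, Tspan32, Zfp941 and Mrgpre, lower in KO, and Echs1, Mtg1 and 9430038I01Rik, higher in KO. The genotype term called 23 of the 108 genes from 130 Mb and 30 of the 218 from 120 Mb, against 8.61% of all tested genes. Within 5 Mb of Klrk1 on chromosome 6, the deleted locus, 2 of 76 tested genes were shared (2.63%), Lag3 and Klra3, and 11 passed the genotype term. Within 5 Mb of Thy1 on chromosome 9, whose allele differs between the genotypes, 2 of 56 were shared (3.57%), Ubash3b and Rexo2, and 8 passed the genotype term.

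**Figure D5:**
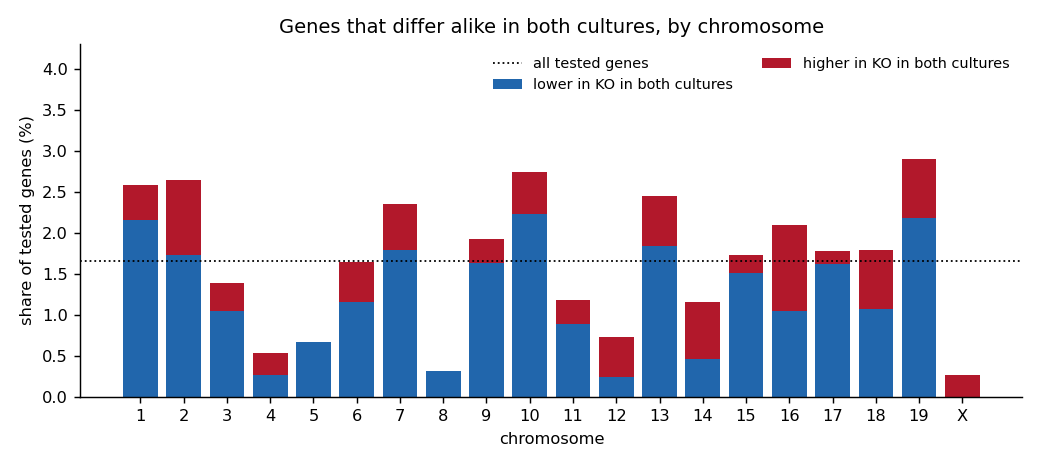
Bars give the percentage of tested genes on each chromosome that were shared, lower in KO in blue and higher in KO in red, and the dotted line is the share over all tested genes, 1.65%. No chromosome held more than 3% of its tested genes as shared ones, so the group at the end of chromosome 7 is not seen at this scale.

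The size of the genotype difference itself was compared between cultures with the interaction term, which 72 of 12189 genes passed (0.591%), 38 without Th17 KO 3. Of the 201 shared genes 9 passed it, all lower in KO: Tspan32, Xdh (the purine-degrading xanthine dehydrogenase), Bcl2l11, Lag3, Hopx, Gbp2, Fgl2, Chst11 and Anxa1. The other 192 did not, which does not show that their differences are equal. Hopx, a homeodomain cofactor of Th1 effector cells, was at 161, 152 and 159 CPM in Th1 WT and 120, 116 and 119 in Th1 KO, and at 79.3, 71.6 and 79.9 CPM in Th17 WT and 31.6, 27.3 and 35.4 in Th17 KO. KO was lower in both, by log2 -0.41 in Th1 and -1.22 in Th17 (interaction adjusted p = 6.68e-05). Without the 3 shallow libraries the genotype term of Hopx missed the threshold (adjusted p 0.0605). Tspan32 and Gbp2 were the ones with the larger difference in Th1, and the other 7 had it in Th17. Among genes that passed the genotype term with 1 sign, Chd3, a chromatin remodeller, and Mxi1, an antagonist of Myc, also passed the interaction but were called in 1 culture each. Chd3 had log2 -0.22 in Th1 (adjusted p = 0.0812) and -1.03 in Th17 (adjusted p = 6.24e-08), and Mxi1 0.99 in Th1 (adjusted p = 7.62e-09) and 0.18 in Th17 (adjusted p = 0.322). Their genotype-term calls, with adjusted p of 0.0438 and 0.0247, were lost in 8 and 7 of the 12 fits with a library left out (up to 0.0961 and 0.0686) and without the 3 shallow libraries (0.181 and 0.0616).

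Genes called in both cultures with opposite signs were rare. Of 204 genes called in both cultures, 202 had 1 sign, 1 of which did not pass the genotype term, and 2 had opposite signs, Cxcr2 and Zdhhc8. Cxcr2, a receptor of neutrophil-attracting chemokines, was at 60.9, 55.8 and 54.5 CPM in Th1 WT and 73.8, 78.6 and 65.3 in Th1 KO, and at 36.5, 31.2 and 35.3 CPM in Th17 WT and 23.9, 21 and 20.2 in Th17 KO. KO was thus higher in Th1 (log2 0.35, adjusted p = 0.00585) and lower in Th17 (-0.67, adjusted p = 0.000352). Cxcr1, a receptor of the same family, was lower in both (log2 -0.25 and -0.50). Zdhhc8, a palmitoyl transferase, had log2 0.24 in Th1 (adjusted p = 0.0449) and -0.37 in Th17 (adjusted p = 0.033). With a library left out, the larger of the 2 adjusted p rose to 0.0856 for Cxcr2, 0.352 for Zdhhc8 and 0.193 for Cxcr1.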

How the data were processed

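Poly-A RNA of 12 sorted samples was sequenced. The authors deposited raw read counts, 1 whole number for each Ensembl gene, not normalised. The submitters' processing notes name featureCounts, TopHat2, Bowtie2 and the build GRCm38 (mm10); versions, strand setting and treatment of reads with several matches are not given in the sources used here. Per the labels' protocols the kit marks no strand.

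Gene names and positions came from GENCODE for GRCm38, and promoters from RefSeq (GRCm38.p6). Counts were scaled by TMM, filtered with filterByExpr (12189 genes kept) and tested with edgeR 4.0.16 (quasi-likelihood, robust, Benjamini-Hochberg adjustment, threshold 0.05) in R 4.3.3. The genotype term came from a fit with culture and genotype, and the Th1, Th17 and interaction tests from a fit of the 4 groups, each on all 12 libraries. Levels are TMM-scaled CPM per library. Replicate numbers follow the order of deposit.

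Named genes were Klrk1; the 12 lowest and 12 highest shared genes with at least 5 CPM and ranges apart in both cultures, without predicted, Rik, receptor-segment and pseudogene names; up to 4 shared members of smallest p per list, or else the 1 of smallest p; and the 5 genes of smallest interaction p among those of the genotype term with 1 sign. The comparison, lists, rules and alternatives were chosen with earlier results of these data known. Some genes that met these rules are not reported here. The tests were also run on counts simulated from the means, library sizes and spread of these data. Alternatives used RLE, DESeq2 1.42.0, limma-voom 3.58.1, other filters, thinning, left-out libraries and terms for shallow libraries. Python 3.11.15, pandas 2.3.3 and matplotlib 3.10.9 were also used.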

Additional observations from a re-analysis of the deposited data

Results flagged for a closer look

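The difference between KO and WT was itself different in Th1 and Th17, by the interaction test, for the following genes. Values are the Th17 log2 difference minus the Th1 one. Among shared genes it was 2.90 for Tspan32 and 0.68 for Gbp2, both farther apart in Th1. It was -0.82 for Lag3, -1.11 for Bcl2l11, -0.81 for Hopx and -0.81 for Xdh, all farther apart in Th17. For Chd3, called in Th17, it was -0.81, and for Mxi1, called in Th1, -0.81. For the pair with opposite signs it was -1.02 for Cxcr2 and -0.61 for Zdhhc8. Lag3 (Th1 adjusted p = 0.048) and Zdhhc8 (Th1 adjusted p = 0.0449) were close to the threshold in Th1.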

How the results depend on the processing

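No paired analysis was possible because the labels carry no replicate numbers, short of guessing pairs from the library codes in the titles. Nothing in the labels says that these codes mark pairs, and no fit with pairs guessed from them was run. Both genotypes grew together, so WT and KO libraries may be paired, and the p-values take no account of that. With libraries thinned to about 844327 counts outside the dominant unnamed ID, 8428 genes were tested. There the genotype term called 300 genes, Th1 109, Th17 208 and the interaction 21, and 39 were shared. DESeq2 called 317 genes in Th1 and 124 shared ones, and limma-voom with sample weights called 1110 in Th1. With each culture fitted alone, Th1 gave 922 and Th17 356. Without the 3 shallow libraries, a fit in which the lone Th17 WT library left is taken to vary like the other groups, Th17 gave 319 and the shared count was 125, of which 103 were among the 201. Without a filter on low counts the interaction gave 207. RLE scaling, a filter of 5 CPM, a term for the shallow libraries and removal of their dominant ID kept the 5 counts within 1.5 times. With each library left out, the genotype term called 810 to 1021 genes, Th1 260 to 679, Th17 411 to 713, the interaction 38 to 108, and the shared count was 107 to 194. Of the 201 shared genes, 59 stayed shared in all 12 of these fits, 49 in fewer than 6, and 22 under all 22 alternatives. Causes were not tested. Depth limits the 3 shallow libraries, where 3 reads correspond to 1.19 to 3.15 CPM.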
